A study of Mus musculus with 13 samples.

Results

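Steroid and prolactin receptors and the luminal transcription factors that act beside them were followed from 10 TSG101-overexpressing mammary tumors to 3 normal mammary glands. The genes are Esr1, Pgr, Prlr, Foxa1, Gata3, Tfap2c, Elf5, Stat5a and Stat5b. They were taken from the deposited table by symbol, and all 9 are among its 15213 genes.

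The tumors came from 6 females that carried an MMTV-driven tetracycline transactivator and a TetO-driven, HA-tagged Tsg101 with a luciferase reporter (genotype MtTA Teto-TSG101wt in the sample labels), in an FVB background and without doxycycline, the agent that switches this system off. The transgene is that of a single founder line, and the MMTV promoter is active mainly in the mammary epithelium. The controls were mammary glands of 3 FVB females (labelled WT). All libraries were made from total RNA of flash-frozen whole tissue. Of the 6 females, 3 gave 1 tumor, 2 gave 2 tumors (tumors 2 and 3, tumors 5 and 6) and 1 gave 3 tumors (tumors 8, 9 and 10), so that the 10 tumors were not all independent samples. Neither the ages nor the reproductive stage of the females stand in the sample labels. The paper places library construction and sequencing at the UNMC genomics core. The labels name both that core and Novogene, without a site for each library, so that no batch could be assigned.

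Levels are given in normalized cpm, read counts divided by a library size that the authors had adjusted with edgeR. The libraries contained 6176269 to 16835397 reads in the case of the tumors and 11672487 to 23889042 for the glands. At these depths, 3 reads amounted to at most 0.683 normalized cpm in a tumor and 0.366 in a gland. The ribosomal RNA precursor Rn45s took up to 27.4% of the reads of a tumor (tumor 9) and up to 4.35% of those of a gland. Muscle genes were high in tumor 4 and, to a lesser degree, in tumor 10, with a summed level of 4 muscle markers of 1439 and 188 normalized cpm against at most 15.7 in any other library. Tsg101 itself, the gene carried by the transgene, was at 66.5 ± 15.5 normalized cpm in the tumors (SD, n = 10) and 53.2 ± 7.68 in the glands (SD, n = 3), which did not pass the test (log2 fold change 0.30, standard error 0.20, adjusted p = 0.296, limma). In 6 tumors the level was above that of all glands.

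In the mammary gland, estrogen and progesterone act through the nuclear receptors encoded by Esr1 and Pgr, which mark hormone-sensing luminal cells, and FOXA1 and GATA3 are luminal factors that work with the estrogen receptor. Prolactin binds the receptor encoded by Prlr, which activates the kinase JAK2 and then the transcription factors STAT5A and STAT5B. Together with ELF5, an ETS factor of alveolar progenitors, STAT5 drives alveolar differentiation and the transcription of milk protein genes.

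Tumors and glands were compared with limma on log2(normalized cpm + 1). A gene was called at a false discovery rate (FDR) below 0.05 and a change of more than 2-fold, and genes above 5 normalized cpm in fewer than 7 of the 13 libraries were left out, as in the methods of the study. Elf5 and Stat5a fell in the tumors, by 1.68 and 1.03 on the log2 scale. Stat5b passed the FDR with a change of 1.99-fold and so stood just under the fold limit. The other 6 genes did not pass the test. Of the 7 genes above the limit on low levels, 2 were therefore called lower and 0 higher, where 6.99% of the 11795 genes tested were called lower and 10.2% higher. Pgr and Foxa1 were below that limit, and their values come from the same test on all 15213 genes, of which 10.1% were called lower and 10.5% higher. The 10 tumors all lay below the 3 glands for 1 of the 7 genes, Stat5b, and above them for 0, where 8.53% and 10.7% of the genes tested were so separated. In whole tissue, fewer cells of a type and less RNA per cell cannot be told apart.

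**Figure D1:**
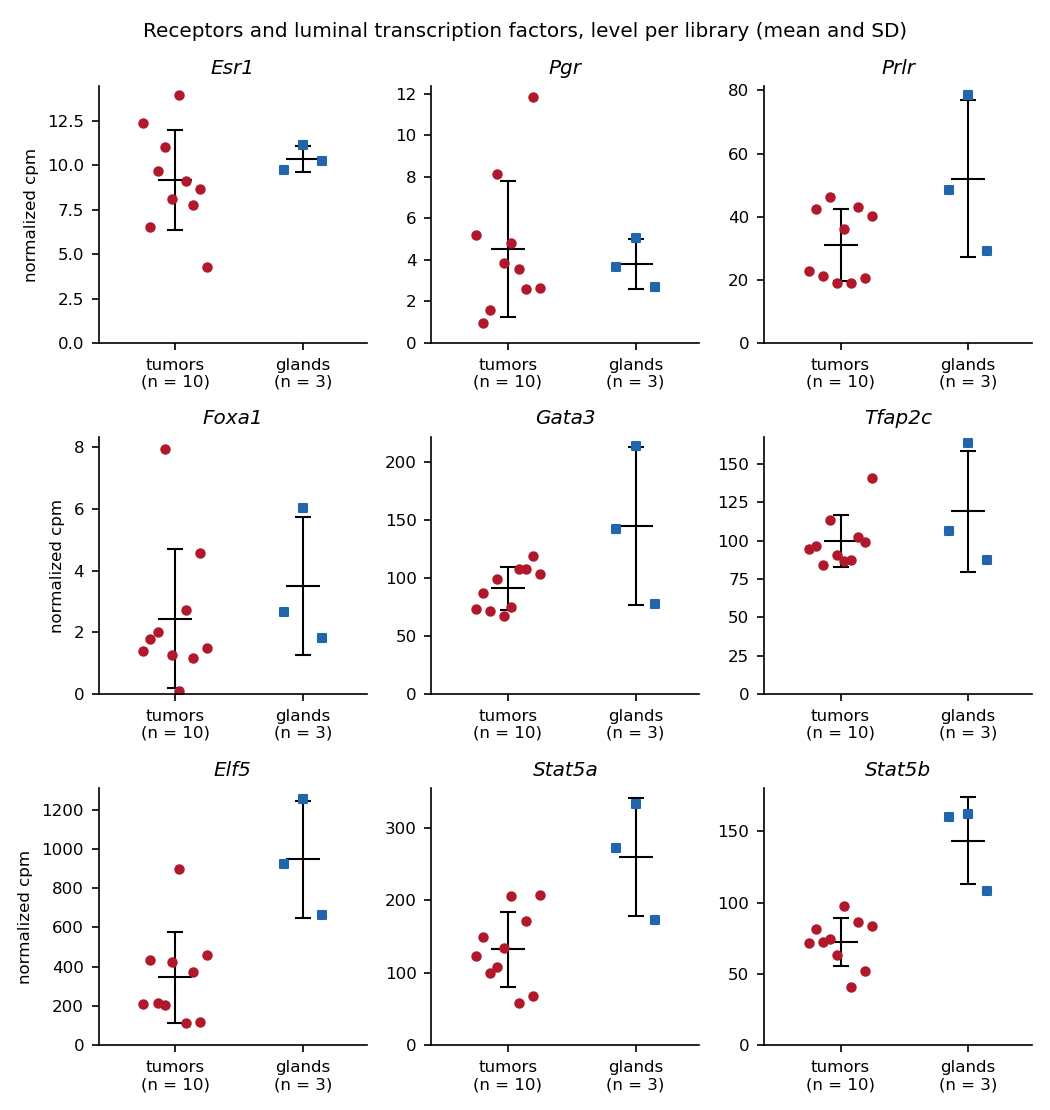
Level of each receptor and transcription factor in normalized cpm (vertical axes, linear, from 0) in the 10 tumors (red circles) and the 3 glands (blue squares), with the mean and SD of each group in black. Tumors and glands are apart for Stat5b, nearly so for Elf5 and Stat5a, and intermingled for Esr1, Pgr and Foxa1.

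The steroid hormone receptor genes had few reads in both tissues and did not differ beyond the spread of the libraries. Esr1 (Entrez 13982, GRCm38.p6 chr10:4611989-5005633), the estrogen receptor alpha gene, ranged from 4.30 to 14.0 normalized cpm in the tumors with a median of 8.89, and was at 9.72, 11.2 and 10.2 in glands 1, 2 and 3. The change was -0.22 on the log2 scale (standard error 0.25, 95% confidence interval -0.76 to 0.33, adjusted p = 0.572, limma). The glands were close together, and the tumors spread to both sides of them, with 7 below all glands (tumor 10 the lowest) and 2 above (tumors 1 and 6).

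Pgr (Entrez 18667, chr9:8898900-8968611), the progesterone receptor gene and a classic estrogen target, ranged from 0.945 to 11.8 normalized cpm in the tumors with a median of 3.72. The glands were at 3.64, 5.06 and 2.68 normalized cpm. The change was 0.03 (standard error 0.45, confidence interval -0.93 to 0.98, adjusted p = 0.974), with 4 tumors below all glands and 3 above. The sign of so small a value turned when 1 of 5 libraries was left out, and no setting called the gene. Tumor 9 was the highest and tumor 2 the lowest, and the level differed 12.5-fold between them. The reads behind these values were few, between 8 and 173 in a library.

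Of 15 genes taken as linked to estrogen and progesterone action, all were listed and 10 were above the limit on low levels. Of these 10, 4 were called higher, 1 lower and 5 not, where 10.2% of all genes tested were called higher and 6.99% lower. This balance depends on the limit, which tumors alone can meet and the glands alone cannot. Greb1, Rerg and Prom1 passed it while under 5 normalized cpm in every gland. Tnfsf11 and Calca, high in the glands, did not pass it. The median log2 fold change of the 10 was 0.46 against 0.01 over all genes tested. Over all 15 genes without the limit it turned to -0.15, against 0.01 over all genes. Greb1, an estrogen receptor cofactor and target, was at 1.04 to 36.1 normalized cpm in the tumors (median 11.1) and at 0.0428, 0.310 and 0.366 in the glands, of which 2 were at 3 reads or fewer. It rose by 3.10 on the fitted log2 scale (standard error 0.63, adjusted p = 0.00197), and all 10 tumors lay above the glands.

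Rerg, a RAS-like estrogen-regulated gene, rose by 4.60 (standard error 0.23, adjusted p = 1.08e-08), from 1.24, 3.05 and 1.22 normalized cpm in the glands to between 45.6 and 101 in the tumors. Prom1, a membrane protein gene of luminal cells, rose by 3.66 (standard error 0.21, adjusted p = 2.41e-08). Myb, a transcription factor gene of the same list, rose by 1.65 (standard error 0.36, adjusted p = 0.00289). These 4 genes rose while Esr1 did not pass the test.

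Of the 10 genes, 1 was called lower. This was Wnt4, which encodes a WNT ligand that progesterone induces. It was at 3.54 to 21.4 normalized cpm in the tumors (median 6.20) and at 24.4, 35.2 and 11.8 in the glands. It fell by 1.49 on the log2 scale (standard error 0.43, adjusted p = 0.0183), with 8 of 10 tumors below all glands. The call was lost without gland 1 (adjusted p = 0.0827), without gland 2 (adjusted p = 0.127), with 1 mean per mouse (adjusted p = 0.0647), with library totals without Rn45s (adjusted p = 0.0661) and without tumors 4, 9 and 10 (adjusted p = 0.0509).

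Tnfsf11, which encodes the ligand RANKL, and Calca, the calcitonin gene, were named after their values were seen, and both were below the limit on low levels. Tnfsf11 was at 0.566 to 6.60 normalized cpm in the tumors and at 13.8, 25.6 and 24.6 in the glands, and fell by 3.05 (standard error 0.40, adjusted p = 4.06e-05, all 15213 genes). Calca was at 3 reads or fewer in 7 of the 10 tumors and at 42.6, 68.2 and 106 normalized cpm in the glands, and fell by 5.35 (standard error 0.66, adjusted p = 2.62e-05). Tumor 9 held the highest level of both genes among the tumors, 6.60 and 16.2 normalized cpm. In all, 3 of the 15 genes were called lower without the limit and 4 higher, where 10.1% and 10.5% of all genes were.

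Among other steroid receptors and their coregulators, 12 of 14 genes were listed and 10 were above the limit. Of these, 1 was called lower, 0 higher and 9 not, which is near the 6.99% called lower among all genes, with a median log2 fold change of -0.05. The gene called was Nr3c1, the glucocorticoid receptor, whose ligands act with prolactin on milk genes. It was at 50.5 to 81.5 normalized cpm in the tumors (median 63.9) and at 139, 167 and 128 in the glands, and fell by 1.17 (standard error 0.17, adjusted p = 0.000119). All 10 tumors lay below the glands.

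The luminal factors Foxa1, Gata3 and Tfap2c did not pass the test. Foxa1 (Entrez 15375, chr12:57540628-57548029), a pioneer factor for the estrogen receptor, ranged from 0.0944 to 7.93 normalized cpm in the tumors with a median of 1.63. It was at 2.65, 6.04 and 1.83 in the glands, a change of -0.50 (standard error 0.48, confidence interval -1.52 to 0.51, adjusted p = 0.459). In tumor 6 the gene had 1 read, which is under the 3 reads that a count of 0 allows, and in tumor 4 it was above all glands. The other tumors lay between, with 6 of 10 in all below the 3 glands.

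Gata3 (Entrez 14462, chr2:9857078-9887953), a factor that maintains luminal cells, ranged from 67.1 to 119 normalized cpm in the tumors (median 92.9) and was at 142, 214 and 77.5 in the glands. The change was -0.57 (standard error 0.26, confidence interval -1.13 to -0.02, adjusted p = 0.118). Gland 3 lay within the range of the tumors, and 4 tumors were below all glands. Without gland 3 the adjusted p was 0.00792, at a change still under 2-fold. The annotation places antisense and sense transcripts over this gene, and whether reads were counted by strand is not given in the sources used here.

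Tfap2c (Entrez 21420, chr2:172545678-172558622), an AP-2 factor of luminal cells, varied the least of the 9 genes among the tumors, with a coefficient of variation of 16.9%. It ranged from 84.3 to 141 normalized cpm (median 95.5) and was at 106, 163 and 87.7 in the glands. The change was -0.22 (standard error 0.19, confidence interval -0.64 to 0.19, adjusted p = 0.431). The 2 groups overlapped, with 3 tumors below all glands, and the sign turned without gland 2 (0.027).

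Of 23 relatives of the 9 genes from the same gene families, 17 were listed and 13 were above the limit. Of these, 3 were called higher, 1 lower and 9 not, where 10.2% of all genes tested were called higher and 6.99% lower. Gata2, a GATA factor best known from blood cells, was at 24.1 to 112 normalized cpm in the tumors (median 68.0) and at 4.58, 5.47 and 3.41 in the glands. It rose by 3.55 (standard error 0.34, adjusted p = 3.51e-06), and 10 of 10 tumors were above the glands. Elf3, an epithelial ETS factor, rose by 1.23 (standard error 0.30, adjusted p = 0.00658), from at most 14.0 normalized cpm in a gland to between 13.4 and 34.5 in the tumors, and 9 of 10 tumors were above all glands. Its change was under the fold limit without gland 3 (0.85, adjusted p = 0.0439) and scaled to 5 epithelial genes (0.65, adjusted p = 0.0223), a scale on which the median of all genes was -0.60.

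Tfap2a, the AP-2 alpha gene of skin and mammary epithelium, rose by 1.12 (standard error 0.38, adjusted p = 0.0406). It was at 56.2 to 139 normalized cpm in the tumors and at 55.8, 88.5 and 17.8 in the glands, so that only 6 tumors lay above all glands. Leaving out any of gland 1, gland 3 or tumors 2, 3, 4, 6, 7 and 8 ended the call, with adjusted p between 0.0532 and 0.256. So did edgeR (0.91 on the log2 scale, adjusted p = 0.094), DESeq2 (0.93), 1 mean per mouse (adjusted p = 0.0745), the scale of 5 epithelial genes (0.50, adjusted p = 0.158) and that of the luminal keratins (0.98). Stat3, which overlaps the end of Stat5a on the opposite strand, was not called (log2 fold change 0.37, adjusted p = 0.338).

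Of the 9 genes, those called lower act in the prolactin branch. Prlr (Entrez 19116, chr15:10177238-10349190), the receptor itself, ranged from 18.9 to 46.3 normalized cpm in the tumors with a median of 29.6. It was at 48.6, 78.4 and 29.3 in the glands, which gave a change of -0.70 (standard error 0.34, confidence interval -1.44 to 0.03, adjusted p = 0.146). The tumors fell into a lower set of 5 between 18.9 and 22.9 and a higher set of 5 from 36.2 upwards. The lower set was below all glands, and the higher set lay above gland 3. Tumors of 1 mouse stood in both sets, as in the female with tumors 8, 9 and 10, whose levels were 43.1, 20.5 and 40.3. Without gland 3 the gene was called lower (log2 fold change -1.06, adjusted p = 0.0418).

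Elf5 (Entrez 13711, chr2:103412098-103450989) had the largest change of the 9 genes. It ranged from 114 to 898 normalized cpm in the tumors with a median of 294, and was at 924, 1255 and 663 in the glands. The mean was 345 ± 234 in the tumors (SD, n = 10) and 947 ± 297 in the glands (SD, n = 3), and the gene fell by 1.68 on the log2 scale, or 3.21-fold (standard error 0.52, confidence interval -2.79 to -0.57, adjusted p = 0.0251). In 9 of 10 tumors the level was below all glands, and tumor 6 was the exception. The lowest levels were those of tumors 7 and 9 (114 and 118 normalized cpm), so that tumor 6 held 7.90 times the level of tumor 7. The adjusted p passed 0.05 and the call was lost without gland 1 (log2 fold change -1.67, adjusted p = 0.0861) or gland 2 (-1.45, adjusted p = 0.123). The change stayed above 2-fold in both. With tumors 4, 9 and 10 left out together, for their muscle genes or Rn45s reads, the change was -1.53 (adjusted p = 0.0543).

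Stat5a (Entrez 20850, chr11:100859351-100885169) ranged from 57.5 to 207 normalized cpm in the tumors with a median of 129. It was at 273, 334 and 173 in the glands. The gene fell by 1.03, or 2.04-fold (standard error 0.36, confidence interval -1.80 to -0.25, adjusted p = 0.0468), and 8 of 10 tumors were below all glands, with tumors 6 and 10 above gland 3. Both the FDR and the fold stood near their limits. The call was lost without gland 1 (adjusted p = 0.162), gland 2 (0.218) or any of tumors 1, 2, 3, 4, 5 and 9 (0.0541 to 0.0664), and with tumors 4, 9 and 10 left out together (0.0667). Without tumor 7 the change was 0.91 on the log2 scale and under the fold limit, as it was with edgeR (0.99, adjusted p = 0.035) and DESeq2 (0.98, adjusted p = 0.0203, where 7.97% of the genes were called lower) on the recovered reads.

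Stat5b (Entrez 20851, chr11:100780731-100859004), its neighbour on the same chromosome, was the gene that best separated the groups. It ranged from 40.6 to 97.5 normalized cpm in the tumors (median 73.6) and was at 160, 162 and 108 in the glands. The change was -0.99 (standard error 0.23, confidence interval -1.49 to -0.49, adjusted p = 0.00532), and all 10 tumors were below the glands. The adjusted p stayed below 0.05 whichever library was left out (0.00339 to 0.0396). The gene crossed the fold limit, and so was called lower, with edgeR (adjusted p = 0.0022, where 8.07% of the genes were called lower), with 1 mean per mouse (log2 fold change -1.05, adjusted p = 0.00911), and without gland 3 (-1.18) or without tumor 2, 4, 6, 8 or 10 (up to -1.04).

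The proportion of the 2 STAT5 genes did not differ between the tissues beyond the spread of the libraries. The ratio of Stat5a to Stat5b was between 1.31 and 2.49 in the tumors, with a median of 1.78, and 1.71, 2.06 and 1.60 in the glands. The mean log2 ratio was 0.79 ± 0.32 in the tumors (SD, n = 10) and 0.83 ± 0.19 in the glands (SD, n = 3), a difference of -0.03 (exact permutation test, two-sided, p = 0.881, where the smallest p possible is 0.0035). Over the means of the 6 mice, the same exact permutation test gave p = 0.583. The genes share 387 sequences of the read length of 75 bases, 5.12% of those of Stat5a and 6.99% of those of Stat5b, and reads in these stretches may be dropped or divided between the genes.

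The genes are neighbours and point away from each other. The 200 bases before the most similar pair of their annotated starts are printed here from RefSeq (GRCm38.p6), 5′ to 3′ on the strand of each gene. Runs of at least 10 bases that both hold are in capitals. The pair was picked for its likeness and no other genes were compared, so the runs do not measure how alike the starts are in general. Both windows lie inside the gene, downstream of its first start. They share 3 runs in the same order, 39 bases in all, of which the longest is 16 bases.
Stat5a, chr11:100860284-100860483, plus strand: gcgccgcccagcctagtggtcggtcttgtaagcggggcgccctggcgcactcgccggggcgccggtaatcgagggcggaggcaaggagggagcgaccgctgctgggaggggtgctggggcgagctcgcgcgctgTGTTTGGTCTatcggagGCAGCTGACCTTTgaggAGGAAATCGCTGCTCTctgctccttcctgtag
Stat5b, chr11:100822571-100822770, minus strand: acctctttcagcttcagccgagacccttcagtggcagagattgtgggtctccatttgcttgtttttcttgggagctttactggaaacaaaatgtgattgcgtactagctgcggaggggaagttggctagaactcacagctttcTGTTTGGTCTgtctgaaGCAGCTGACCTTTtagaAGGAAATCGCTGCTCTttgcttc

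Of 13 genes of prolactin receptor signalling, 12 were listed and 11 were above the limit, with 4 called lower, 1 higher and 6 not, and a median log2 fold change of -0.42. Of all genes tested, 6.99% were called lower and 10.2% higher, with a median of 0.01, and whether the list differs from them was not tested. Cish, a feedback inhibitor that STAT5 induces, was at 20.3 to 72.3 normalized cpm in the tumors (median 31.9) and at 123, 133 and 72.2 in the glands. It fell by 1.63 (standard error 0.32, adjusted p = 0.00159), with 9 of 10 tumors below all glands and tumor 6 the highest. Socs2, another STAT5-induced inhibitor, named after its values were seen, fell by 1.12 (standard error 0.22, adjusted p = 0.00156) in 10 of 10 tumors.

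Ghr, the growth hormone receptor gene, fell by 1.34 (standard error 0.27, adjusted p = 0.0017). Gland 3 was its highest library at 322 normalized cpm against 142 and 148 in glands 1 and 2, and without gland 3 the change was 0.96 on the log2 scale. Tnfrsf11a, which encodes RANK, the receptor for RANKL, fell by 1.66 (standard error 0.41, adjusted p = 0.00742), with 8 of 10 tumors below all glands. Its call was lost without gland 1 (adjusted p = 0.0534) or gland 2 (adjusted p = 0.0552).

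Socs3 went the other way. This inhibitor, which STAT3 and cytokines induce, was at 23.2 to 71.6 normalized cpm in the tumors (median 42.9) and at 11.2, 5.73 and 9.51 in the glands, and rose by 2.20 (standard error 0.29, adjusted p = 5.41e-05) in 10 of 10 tumors. The kinase gene Jak2 was not called (log2 fold change -0.19, standard error 0.15, adjusted p = 0.397).

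**Figure D2:**
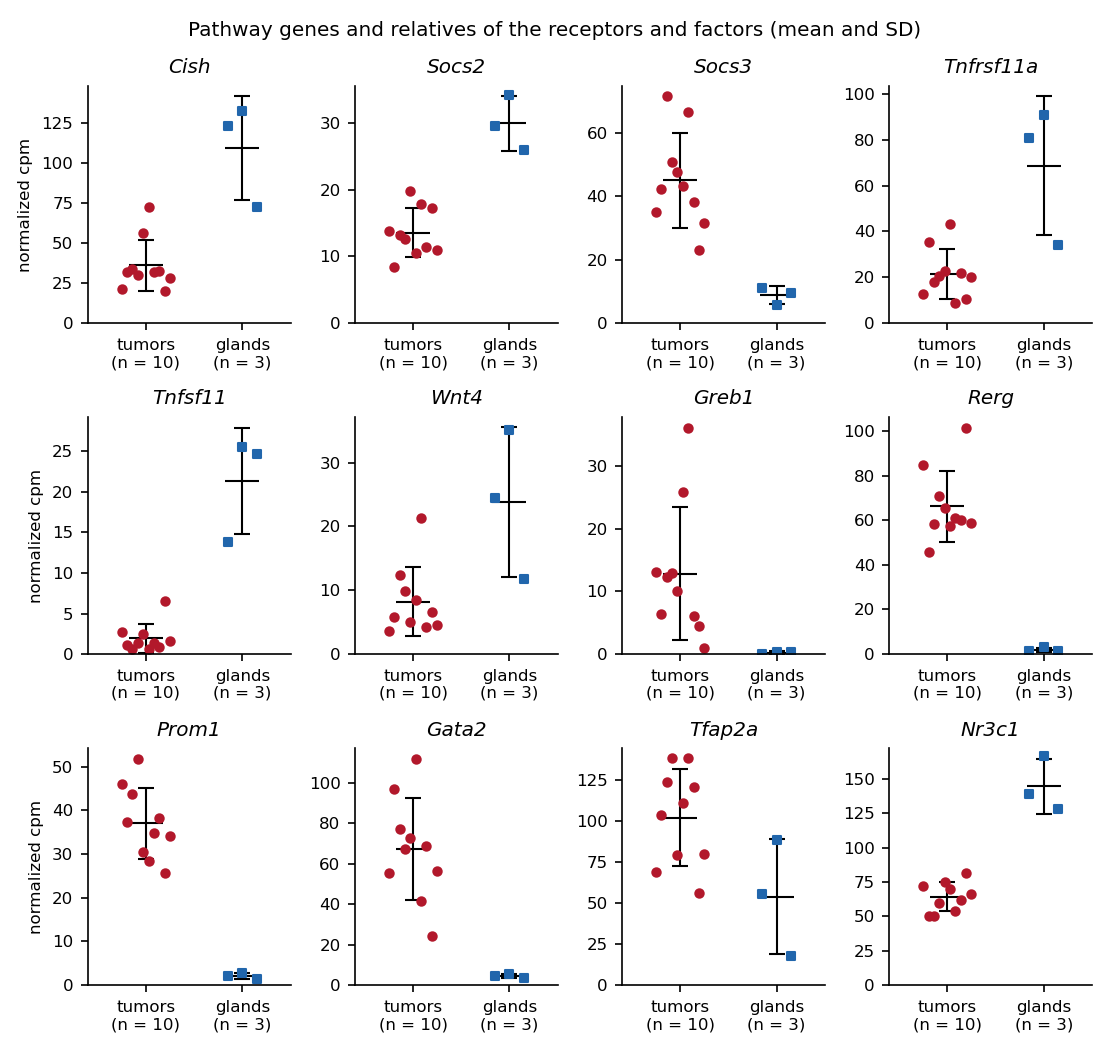
Level in normalized cpm (vertical axes, linear, from 0) of 12 genes of the prolactin and steroid hormone pathways and of the relatives, in the 10 tumors (red circles) and the 3 glands (blue squares), with mean and SD. Cish, Socs2, Tnfrsf11a, Tnfsf11, Wnt4 and Nr3c1 were lower in the tumors, whereas Socs3, Greb1, Rerg, Prom1, Gata2 and Tfap2a were higher.

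The milk protein genes, the end point of this branch, fell in the tumors. All 12 listed were called lower, where 6.99% of all genes tested were. Their median log2 fold change was -3.44 against 0.01 over all genes tested. Csn2, the beta-casein gene, was at 85.1 to 21978 normalized cpm in the tumors (median 1878) and at 56894, 63624 and 59019 in the glands. It fell by 4.96 (standard error 1.27, adjusted p = 0.00877), with 10 of 10 tumors below the glands. Glycam1 fell by 8.35 (standard error 1.76, adjusted p = 0.00242), Wap, the whey acidic protein gene, fell by 6.98 (standard error 1.69, adjusted p = 0.00633) and Csn1s2a fell by 5.10 (standard error 1.40, adjusted p = 0.0133). The summed level of the 12 genes ran from 1860 normalized cpm in tumor 9 to 78349 in tumor 6, and from 169941 to 308444 in the glands. Thus no tumor was without milk transcripts, and the highest tumor held less than any gland. The paper followed tumor formation in multiparous females and reports that it depended on parity. It gives no reproductive stage for the sequenced females, and the glands held milk transcripts at high levels. A difference of stage between the groups and a difference between tumor and gland cannot be told apart, for the milk protein genes as for Elf5 and the STAT5 genes.

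Tumor 6, the tumor with the most Elf5, also held the most Csn2 and the most Stat5b, and tumors 7 and 9 were the lowest for Elf5, Stat5a, Stat5b and Csn2. This was examined over the means of the 6 mice, since tumors of 1 mouse are not independent. For Elf5 the correlation with Csn2 was positive (Pearson r = 0.885, exact permutation p = 0.0319, Spearman rho = 0.771, exact permutation p = 0.103). Over the 9 genes compared, its adjusted p was 0.256 for r and 0.308 for rho, and without the 2 mice farthest from the median of Csn2 r was 0.109, so that the relation rested on those mice. Stat5b had r = 0.731 (exact permutation p = 0.114, adjusted p = 0.256) and rho = 0.943 (exact permutation p = 0.0167, adjusted p = 0.150), and r = 0.847 without the 2 farthest mice. Stat5a had r = 0.760 (exact permutation p = 0.0889, adjusted p = 0.256) and rho = 0.486 (exact permutation p = 0.356, adjusted p = 0.640), and r = -0.62 without the 2 farthest mice.

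Gata3 ran the other way (r = -0.79, exact permutation p = 0.0569, adjusted p = 0.256; rho = -0.77, exact permutation p = 0.103, adjusted p = 0.308; r = -0.59 without the 2 farthest mice). For the other 5 genes r was between -0.40 and 0.342. No relation passed the correction over the 9 genes, and 6 mice leave little room to do so.

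**Figure D3:**
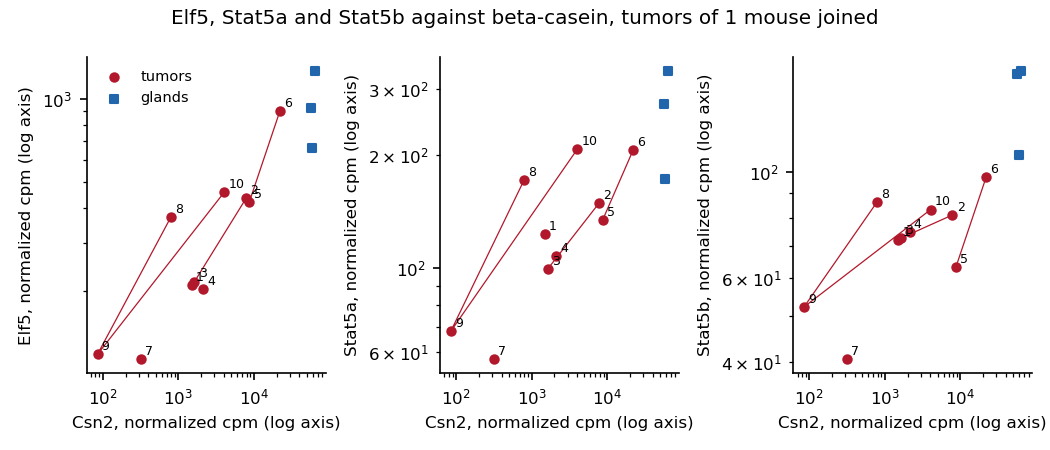
Elf5, Stat5a and Stat5b (vertical axes) against beta-casein (Csn2, horizontal axes), all in normalized cpm on log axes, for the 10 tumors (red circles, numbered, with tumors of the same mouse joined) and the 3 glands (blue squares). The glands lie at the right, at 56894 to 63624 normalized cpm of Csn2, and tumor 6 comes nearest to them while tumors 7 and 9 lie at the lower left.

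STAT5 is known to bind the sequence TTCNNNGAA. It was searched in the 250 bases before each RefSeq start (its reverse complement is the same pattern), and 7.02% of 32851 such windows of all genes hold it. Windows were given for 8 of the 9 receptors and factors. Of their 14 windows, 2 hold the pattern, 1 of Prlr and 1 of Esr1, and none of Elf5, Stat5a, Stat5b, Pgr, Gata3 or Foxa1. The windows of Wap and Cish, which fell, do not hold it either. The estrogen response element (GGTCA and TGACC with 3 free bases between) was in none of the 14 windows and in 0.0639% of all. The FOXA pattern TGTTTAC was in 1 window each of Foxa1 and Prlr (3.17% of all windows, both strands), the GATA pattern AGATAA in none (9.99%), and the AP-2 pattern GCCNNNGGC in windows of Esr1 and Gata3 (13.7%). A match describes the letters and not a bound site. The 200 bases before the start are printed, 5′ to 3′, for 2 caseins that fell, for Socs3, which rose, and for Prlr, with the STAT5 pattern in capitals (GRCm38.p6).
Csn2, chr5:87699426-87699625, minus strand: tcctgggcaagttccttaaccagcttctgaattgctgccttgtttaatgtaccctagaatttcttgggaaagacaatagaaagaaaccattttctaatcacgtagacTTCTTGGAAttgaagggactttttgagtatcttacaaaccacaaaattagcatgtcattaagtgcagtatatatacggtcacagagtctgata
Csn1s1, chr5:87666008-87666207, plus strand: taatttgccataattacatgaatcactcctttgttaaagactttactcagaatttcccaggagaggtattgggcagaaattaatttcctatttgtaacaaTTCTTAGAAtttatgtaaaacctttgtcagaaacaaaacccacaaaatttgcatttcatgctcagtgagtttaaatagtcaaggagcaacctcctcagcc
Socs3, chr11:117969367-117969566, minus strand: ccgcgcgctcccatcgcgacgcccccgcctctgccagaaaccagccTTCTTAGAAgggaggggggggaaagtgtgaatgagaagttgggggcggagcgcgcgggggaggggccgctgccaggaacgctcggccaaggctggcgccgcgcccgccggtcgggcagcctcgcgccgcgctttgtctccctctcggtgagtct
Prlr, chr15:10223706-10223905, plus strand: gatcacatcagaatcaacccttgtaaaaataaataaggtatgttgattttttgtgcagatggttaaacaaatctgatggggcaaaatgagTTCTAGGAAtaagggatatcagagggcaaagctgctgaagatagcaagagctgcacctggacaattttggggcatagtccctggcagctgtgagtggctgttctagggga
The capitals begin 93, 100, 154 and 110 bases before the start, counted in that order. The same letters, TTCTTAGAA, thus stand before Csn1s1, which fell, and before Socs3, which rose.

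Genes of several other cell types differed between the groups as well. Of all genes tested, 6.99% were called lower and 10.2% higher, or 10.1% and 10.5% without the limit on low levels. The summed level of 9 adipocyte markers was at most 421 normalized cpm in a tumor (tumor 4) and at least 3554 in a gland. Without the limit on low levels all 9 were called lower, with Lep at 3 reads or fewer in 7 tumors. The 4 endothelial markers fell in sum from between 149 and 436 to between 28.6 and 76.9, and 4 of 4 were called lower. Of 6 fibroblast markers, 3 were called lower (sums of 269 to 849 in the tumors and 1369 to 2239 in the glands). Of 8 lymphocyte markers, 6 were called lower without the limit, with sums of 10.4 to 104 in the tumors and 502, 23.9 and 453 in glands 1, 2 and 3. Of 4 macrophage markers, 1 was called higher and 3 were not (sums of 92.3 to 233 and 109 to 132). The part of these cells in the fall of Elf5 and of the STAT5 genes was not tested.

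Luminal markers were not called lower. Of 9 luminal genes, 2 were called higher, 0 lower and 7 not, where 10.2% of all genes tested were called higher and 6.99% lower. Their sum was 2029 to 3007 normalized cpm in the tumors against 1244 to 2720 in the glands, with no marker at 3 reads or fewer in any library. The luminal keratins Krt8 (0.08 on the log2 scale, standard error 0.35, adjusted p = 0.888) and Krt18 (0.22, standard error 0.25, adjusted p = 0.556) did not pass the test, and the sign of both turned in some alternatives. Krt7 rose by 3.32 (standard error 0.38, adjusted p = 1.76e-05) and the tight junction gene Cldn4 by 1.59 (standard error 0.26, adjusted p = 0.000301). Of 9 genes of basal and myoepithelial cells, 8 were above the limit, and 4 were called higher and 4 lower. The higher ones included Krt5 (2.82, standard error 0.47, adjusted p = 0.000422), Krt17 and Trp63, and the lower ones the contractile genes Acta2, which fell by 4.32 (standard error 0.49, adjusted p = 1.59e-05), Myh11 and the oxytocin receptor gene Oxtr. Of 9 squamous and hair follicle genes, 8 were above the limit, which the glands alone cannot meet, and 8 were called higher. Without the limit, 8 of the 9 were called higher and 1 not, where 10.5% of all genes were called higher. Their sums were 315 to 3872 in the tumors and 14.9 to 29.7 in the glands.

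Genes of luminal progenitors, the cells in which Elf5 is known to act, were split. Aldh1a3 rose by 2.12 (standard error 0.39, adjusted p = 0.00081) and Cd14 by 1.03 (standard error 0.24, adjusted p = 0.00523), whereas Itgb3 fell by 1.12 (standard error 0.33, adjusted p = 0.0194). Kit (log2 fold change 0.75, adjusted p = 0.051) and Itga2 did not pass the test. The calls of Cd14 and Itgb3 were lost without gland 1 (adjusted p = 0.0631 and 0.132). Cd14 dropped just under the fold limit without tumor 5, 6 or 9 (0.99), with edgeR (0.99) and with 1 mean per mouse (0.96), and lost the call scaled to epithelial genes (0.40, adjusted p = 0.31) or to luminal keratins (0.88, adjusted p = 0.128). Itgb3 lost the call without gland 2 (adjusted p = 0.0538), without tumors 4, 9 and 10 (adjusted p = 0.0556) and with library totals without Rn45s (-0.77, adjusted p = 0.112).

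Because the share of epithelium may differ between whole tissues, the levels were also scaled to 5 epithelial genes (Epcam, Cdh1, Cldn3, Cldn4 and Cldn7). This moved the median change of all genes to -0.60. Before scaling, Cldn4 was called higher in the tumors (1.59) and Epcam was at 0.65 (adjusted p = 0.0227, limma), with 10 of 10 tumors above all glands. None of the 5 was called lower. More epithelium and higher expression of the scaling genes both lower the other genes on this scale and cannot be told apart. Calls numbered 648 higher and 2746 lower on this scale, against 1204 and 825 without it. On this scale 5 of the 7 genes were called lower, where 23.3% of all genes were: Elf5 (log2 fold change -2.32), Stat5a (-1.66), Stat5b (-1.62), Prlr (-1.33) and Gata3 (-1.20). Scaled to Krt8 and Krt18 alone, with a median change of all genes of -0.13, Elf5 (-1.83), Stat5a (-1.18) and Stat5b (-1.14) were called, where 8.51% of all genes were (818 higher and 1004 lower calls). With reads scaled to library totals after Rn45s was removed, the median of all genes was 0.38 and no member was called, where 4.03% of the genes were called lower (2051 higher and 475 lower calls). On that scale Elf5 was at -1.29 (adjusted p = 0.0661), Stat5a at -0.64 (adjusted p = 0.21) and Stat5b at -0.61 (adjusted p = 0.101). Nr3c1 (-0.79), Ghr (-0.95) and Socs2 (-0.75) were then under the fold limit too. Relative to the median of all genes, the change of Elf5 was -1.72, -1.70 and -1.68 on these 3 scales.

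Per kilobase of exon, the order of the genes was much the same in both tissues. In the tumors the median level was 50.1 normalized cpm per kb for Elf5, followed by Tfap2c (26.0), Gata3 (23.4), Stat5a (18.1) and Stat5b (13.3). Prlr (1.93), Esr1 (0.650), Foxa1 (0.489) and Pgr (0.435) were far lower. The ranges of neighbours in this order overlapped, except that every tumor held more Stat5b than any held Prlr, and more Prlr than any held Esr1. In the glands the median was 157 normalized cpm per kb for Elf5 and 38.3 for Stat5a, which stood above Gata3 and Tfap2c there and below both in the tumors.

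Tumors of 1 mouse differed in the level of some of these genes and were close in others. In the female with 3 tumors, Elf5 was at 371, 118 and 457 normalized cpm in tumors 8, 9 and 10, Stat5a at 172, 68.1 and 207, and Stat5b at 86.5, 52.1 and 83.3. Tumor 9 was thus the low one for these 3 genes, while Gata3 was at 107, 119 and 103 and did not follow them. In the female with tumors 5 and 6, Elf5 was at 423 and 898 and Stat5a at 134 and 206, whereas Gata3 was at 67.1 and 74.6. With 1 mean per mouse, Elf5 (log2 fold change -1.86, adjusted p = 0.0126), Stat5a (-1.14, adjusted p = 0.0271) and Stat5b were called lower, where 6.78% of the genes were.

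The genes whose pattern over the 10 tumors was most like that of each member were found by Pearson r on log2(normalized cpm + 1) among the genes above the limit. For Elf5 these were Mapk4 (r = 0.992), Odad4 (0.986) and Rogdi (0.981). For Stat5a they were Rilp (0.975), Slc5a6 (0.967) and Hhipl2 (0.965), and for Stat5b Apobec3 (0.972), Entpd6 (0.962) and Fkbpl (0.956). The closest to Esr1 was Them6 (0.968), to Pgr Cbll1 (0.935) and then Rerg (0.868), to Prlr Pomt1 (0.919), to Gata3 Depp1 (0.931), to Tfap2c Plpp1 (0.894) and to Foxa1 Pdlim3 (0.874). These values describe 10 tumors of 6 mice and were picked from 11795 genes.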

How the data were processed

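RNA sequencing of 10 tumors and 3 glands was analysed from a single deposited table. Mapping of the 75-base paired-end reads (mm10, Rsubread), counting (featureCounts) and normalization (edgeR) were done by the authors. Each deposited signal value is a read count divided by an effective library size, here named normalized cpm, and 100% of them were whole multiples of the value of 1 read (tolerance 0.01 read), from which read counts were recovered. The values were tested with limma 3.58.1 (trend on mean expression) on log2(value + 1) over all 13 libraries in R 4.3.3, with Benjamini-Hochberg adjustment over 11795 genes, after removal of 3418 genes that were above 5 in fewer than 7 libraries. Alternatives were edgeR 4.0.16 and DESeq2 1.42.0 on the recovered reads, other pseudocounts, scalings and filters, means per mouse, and leaving out libraries. The limma procedure was also run on simulated independent libraries of 1 fixed dispersion. These did not mimic tumors of 1 mouse or the differing Rn45s shares, and so do not bear on them.

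The receptors and factors, the gene lists and the marker lists were chosen with earlier results of these data known. Named from each list were up to 3 genes with the largest rise and up to 3 with the largest fall among those called, besides 9 reference genes. Tnfsf11, Calca, Socs2, Myb, Lep, Jak2, Stat3, Kit and Itga2 fall outside this rule and were named after their values were seen. Gene positions are those of RefSeq on GRCm38.p6, and exon lengths are the union of GENCODE M21 exons. Limits of 3 reads and confidence intervals of reads cover counting error only. The p-values treat the 10 tumors as separate samples unless means per mouse are named, and nothing in the labels ties a gland to a tumor. Some genes of the lists are counted but not reported singly here.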

Additional observations from a re-analysis of the deposited data

Results flagged for a closer look

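In 17 of 62 named genes, the highest of the 10 tumors stood apart by Dixon's test at the 95% level, run on the linear scale. Chance alone gives about 1 in 20 groups only where values are normally spread. The levels of some genes were skewed, as for Glycam1 (mean 551, median 42.7) and Csn2 (mean 4903, median 1878), so that rate does not hold for them. Whether these tumors stand apart on the log2 scale of the other tests was not tested. Many of these genes share a tumor, so that they are not separate events.

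Tumor 6 was apart for Elf5, at 898 normalized cpm against 457 in the next tumor. It was also apart for Csn2 (21978 against 8708), Glycam1 (3201 against 1630), Wap (1706 against 875) and Krt8 (446 against 299). Tumor 10 was apart for Tfap2c, at 141 normalized cpm against 113. Without tumor 6 the change of Elf5 was -1.86 (adjusted p = 0.00599, limma).

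Tumor 7, with low Elf5 and STAT5 levels, was apart for Krt17 (1359 normalized cpm), Trp63 (298), Krt27 (257), Pecam1 (44.0) and Wnt4 (21.4). Tumor 9, the other low tumor, was apart for Calca (16.2 normalized cpm, against 0.960 in the next) and Tnfsf11 (6.60). Tumor 4 was apart for the adipocyte genes Cfd (124 normalized cpm) and Adipoq (26.4) and for Oxtr (12.6), and tumor 3 for Krt7 (576).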

How the results depend on the processing

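Of 1514 alternative values for the 62 named genes, 1396 kept direction and side of the limits, 84 fell short of them, 14 newly passed and 20 turned sign. No member was called higher in any alternative. Called lower (2 with limma) were 1 with DESeq2 (7.97% of all genes), 0 with library totals without Rn45s (4.03%), 5 scaled to epithelial genes (23.3%), and 0 when tumors 4, 9 and 10 (muscle genes or Rn45s) were left out together, an alternative chosen after seeing the data (Elf5 -1.53, adjusted p = 0.0543, with 6.38% of all genes called lower). Leaving out 1 library gave 0 (gland 1 or 2, with 5.59% and 6.55% of all genes called lower) to 4 (gland 3, with 9.50%). The cause was not tested. Genes called lower (18) in the steroid-responsive, steroid receptor, prolactin and milk lists together numbered 14 to 18 without 1 library, and those called higher stayed at 5. The relations to Csn2 passed the correction for 2 genes, Elf5 and Stat5a, when all 10 tumors were taken as independent, against 0 over mice.

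Replicate numbers are shared by tumors and glands, but deviations of same-numbered libraries correlated at -0.58, 0.04 and -0.66, so that they pair nothing. With a replicate block 0 members and 5 genes of these lists were called lower, and 4 of the lists higher, in the few degrees of freedom left, and 1.54% of all genes were called lower.

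Signs that turned belonged to genes without a call. The scalings moved the median of all genes (0.38 without Rn45s, -0.60 for epithelial genes, -0.13 for luminal keratins). Relative to this median, Esr1, Tfap2c, Pgr, Krt8, Krt18 and Tsg101 kept their sign under the scalings. The cause of the turns was not tested. Without Rn45s, Esr1 was at 0.13 and Tfap2c at 0.16. Pgr was at -0.46 scaled to epithelial genes, -0.072 scaled to luminal keratins and -0.26 without tumors 4, 9 and 10, and ran from -0.15 to 0.21 without 1 library. Tfap2c ran from -0.42 to 0.027 (without gland 2). Krt8 was at -0.043 with edgeR, -0.028 with DESeq2, -0.55 and -0.069 under the 2 scalings, the second of which is built on Krt8 and Krt18, and ran from -0.42 to 0.48 without 1 library. Krt18 was at -0.41 scaled to epithelial genes and ran from -0.079 to 0.58 without 1 library, and Tsg101 was at -0.33 on that scale. The log2 ratio of Stat5a to Stat5b differed by -0.11 to 0.072 without 1 library. Depth limits Pgr, Foxa1 and Calca, with as few as 8, 1 and 0 reads in a library.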
